A study of Danio rerio with 9 samples.

Results

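RNA from the livers of wild-type zebrafish was sequenced in 3 libraries, which are 3 of the 9 libraries of a series that also holds 3 from maternal-zygotic pdia6-/- and 3 from maternal-zygotic focad-/- fish. The 3 wild-type libraries were taken by their genotype label, carry the strain name AB in their titles, and came from fish 3.5 months old. No allele or treatment is named for them, and the mutant libraries were not used. The labels give neither sex nor the number of fish behind a library, so the spread between the 3 libraries holds differences between samples and whatever is technical. With 1 group of 3 there is no contrast to test, and the values below describe these libraries without p-values. The question was what an adult wild-type liver expresses most, how much of the total those transcripts make up, and which of the abundant genes differ most between the 3 libraries.

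The liver is the main source of plasma proteins. Hepatocytes secrete apolipoproteins, which carry lipid, fibrinogen and other clotting proteins, complement, protease inhibitors and metal carriers. They also hold the enzymes of glucose, amino acid, fatty acid and sterol metabolism, many of which are set by feeding, hormones and stress. Secreted proteins are folded in the endoplasmic reticulum (ER) with the help of chaperones such as hspa5 (BiP) and of disulfide isomerases of the pdia family.

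Levels are given as FPKM (fragments scaled to gene length and library size, as deposited), for replicates 1, 2 and 3 in that order. All 33716 gene IDs were ranked. The libraries held 46243442, 46069801 and 48777204 reads assigned to genes, recovered from the FPKM values, and 23623 genes had a read in at least 1 of them. A mean of at least 1 FPKM, taken here as expressed, was reached by 10387 genes. A mean of at least 100 FPKM, taken here as abundant, was reached by 600 genes, which are 5.78% of the expressed genes and 87.0% of the total FPKM. The 20 hepatocyte markers summed to 25.7, 23.5 and 24.6% of the total, and all 20 were expressed. As a reading of depth, the abundant genes had at least 2339 reads over the 3 libraries, and their median counting error was 0.755% against a median coefficient of variation between libraries of 21.7%.

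Expression was concentrated in few genes. The 10 leading genes took 25.9, 24.9 and 24.5% of the total FPKM (25.1% ± 0.72, SD, n = 3), the 50 leading genes took 49.1% ± 1.39 and the 100 leading genes 61.0% ± 1.31. With genes ranked within each library, 50% of the FPKM was reached with 48, 50 and 58 genes, and with 54 genes ranked by the mean. Concentration was thus similar in the 3 libraries. Above 1000 FPKM there were 153 genes, and above 10000 FPKM there were 10.

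**Figure D1:**
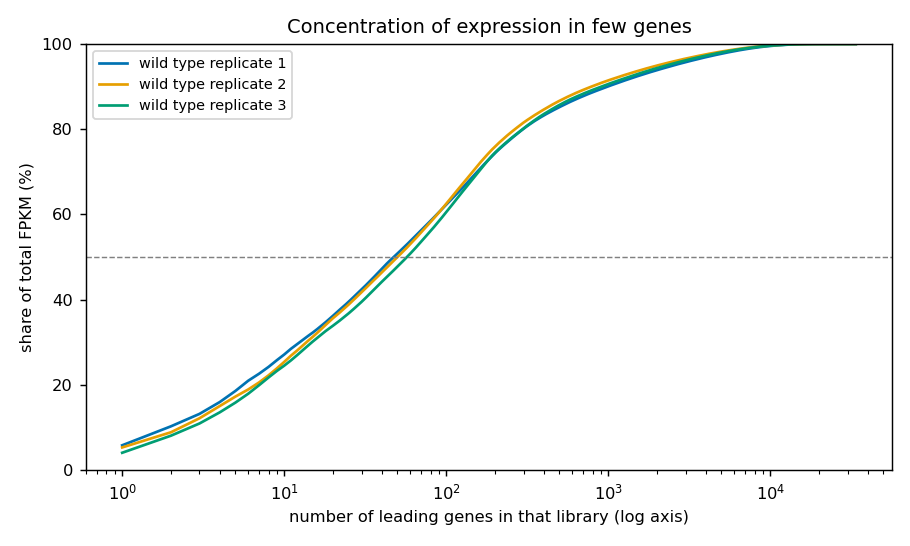
Share of the total FPKM (y axis, %) held by the leading genes of each wild-type library (x axis, number of genes ranked within that library, log axis), with 1 line per library and a dashed line at 50%. The 3 lines lie close together and cross 50% at 48, 50 and 58 genes.

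FPKM counts per gene length, so short transcripts rank higher than they would by reads. The 100 leading genes had a median length of 878 bases, the abundant genes of 1138.5 and the expressed genes of 1676. By share of reads, apoa1b led with 6.11%, followed by tfa with 2.75%, apoa2 with 2.70% and fga with 2.22%. The complement gene c3a.1, with 5069 bases, ranked the fifth by reads with 1.98% and at rank 32 by FPKM.

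Lipoprotein genes headed the ranking. Apoa2, an apolipoprotein of high-density lipoprotein, had 43990, 41898 and 30475 FPKM, which was 5.05% ± 0.94 of the total. Apoa1b, a copy of the main apolipoprotein of the same particle, had 33668, 25854 and 30967 FPKM (3.94% ± 0.60). Apoc1, a small exchangeable apolipoprotein, had 22024, 22466 and 15866 FPKM (2.62% ± 0.46). Replicate 3 was the lowest for apoa2 and apoc1, and replicate 2 for apoa1b. The second apoa1 copy, apoa1a, stood at 8219, 6602 and 4251 FPKM. All 27 expressed genes of the apolipoprotein list together took 15.7, 13.3 and 11.6% of the FPKM, more than any other of the 32 gene lists in replicate 1 and less than the ribosomal proteins in replicates 2 and 3. By share of reads the order of the means turned, from 13.5% for apolipoproteins and 14.1% for ribosomal proteins by FPKM to 13.02% and 8.04%.

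Fabp10a, the fatty acid binding protein of the zebrafish liver and a common hepatocyte marker, was the third by the mean, with 20944, 28022 and 19842 FPKM (2.98% ± 0.51). Rbp4, the plasma carrier of retinol, had 4087, 7424 and 6403 FPKM. The fatty acid and retinoid carriers took 3.78, 4.96 and 3.80% of the FPKM, highest in replicate 2. Their mean of 4.18% was 1.77% by share of reads.

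Fibrinogen, the clotting protein made of an alpha, a beta and a gamma chain, put all 3 of its genes among the leading 20. Fga had 18156, 12987 and 21798 FPKM, fgb 19758, 12768 and 13660, and fgg 12404, 7627 and 9237. Replicate 2 was the lowest for each chain as deposited (for fgb, replicate 3 after the libraries were rescaled to a common median), while the highest library was replicate 3 for fga and replicate 1 for fgb and fgg. The ratio of the chains was not the same in every library, with fga below fgb in replicate 1 and above it in replicates 2 and 3. The coagulation and fibrinolysis list took 7.91, 5.38 and 7.14%, with 19 of its 24 expressed members abundant.

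Tfa, transferrin, the iron carrier of plasma, was the steadiest of the leading 20 as deposited, with 11981, 12106 and 11624 FPKM (1.55% ± 0.031). Its ratio of the highest to the lowest library, 1.04 on FPKM + 1, is small beside the rescaling factors of 1.069, 0.931 and 1.006. This rank therefore holds for the deposited scale. Among the protease inhibitors, serpina1l and serpina1, copies of the alpha-1-antitrypsin gene, had 7389, 9433 and 17438 FPKM and 4846, 8576 and 8033 FPKM. Replicate 3 was far above the others for serpina1l but not for serpina1, although the genes lie next to each other in the RefSeq order. The list took 4.68, 5.74 and 6.87%. Reads of near-identical gene copies can be split between them by counting, and how the authors counted such reads is not given in the sources used here.

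Ucp1, a carrier of the inner mitochondrial membrane known in mammals for heat production in brown fat, stood seventh. It had 5967, 17613 and 15229 FPKM, with replicate 1 well below the other libraries. Mitochondrially encoded subunits of cytochrome oxidase and ATP synthase filled 4 of the leading 20 places. Mt-co2 had 10163, 11471 and 7470 FPKM, mt-co1 10083, 9246 and 6557, mt-co3 6979, 7305 and 4907, and mt-atp6 6206, 6035 and 4303. Replicate 3 was the lowest for all 4, and for 12 of the 13 mitochondrially encoded genes, both as deposited and after rescaling. Of all 600 abundant genes it was the lowest for 168 as deposited and 169 after rescaling.

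Placeholder symbols held a pair of places. Wu:fj16a03 had 11856, 13167 and 9360 FPKM and zgc:123103 had 3831, 5073 and 8929. Around the end of the leading 20, zgc:123103 (mean 5944) and mt-atp6 (mean 5515) were just inside, and cp, ceruloplasmin (mean 4660), and bhmt, which remakes methionine from homocysteine (mean 4506), just outside.

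The order within the leading 20 was loose. Ranked in each library alone, 14 genes were in the leading 20 of all 3 libraries and 27 genes in that of at least 1. Of the 19 pairs of neighbours in the mean order, 0 kept their order in all 3 libraries, so no neighbour in it is separated from the next beyond the spread between libraries.

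**Figure D2:**
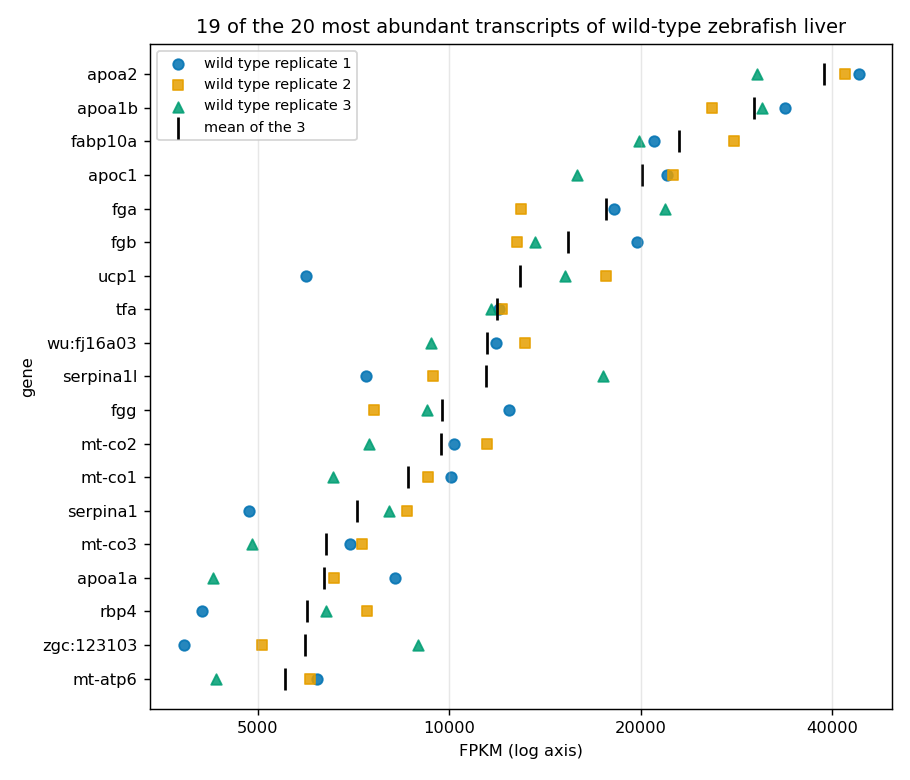
FPKM (x axis, log axis) of 19 of the 20 genes with the highest mean (y axis) in wild-type replicates 1, 2 and 3, with a black bar at the mean of the 3. As deposited, tfa shows the least spread, and ucp1 (5967 to 17613 FPKM) and serpina1l (7389 to 17438 FPKM) the widest ranges.

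By function, 32 lists of liver genes, which share some members, held 333 of the 600 abundant genes and 72.05% of the total FPKM. Cytosolic ribosomal proteins took 12.5, 15.2 and 14.6%, with rps2 at 4183, 5086 and 4193 FPKM, and 75 of 78 expressed members were abundant. Of these 78, replicate 2 held the highest value for 64 as deposited and for 74 after rescaling. Of all 600 abundant genes, replicate 2 was the highest for 239 as deposited and 324 after rescaling, and replicate 1 for 191 and 127. Mitochondrially encoded transcripts took 5.86, 5.64 and 3.998%.

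Acute phase proteins, whose plasma levels shift in inflammation, took 4.19, 3.84 and 3.09%. Complement took 3.58, 2.66 and 2.41% (a mean of 2.88%, and 5.77% by share of reads), with its lead member cfhl4, a factor H-like regulator, at 4654, 3700 and 4063 FPKM and c9, of the membrane attack complex, at 4514, 3912 and 3583. Amino acid breakdown and the urea cycle took 2.05, 3.57 and 3.73%, and glycolysis and gluconeogenesis 1.88, 3.28 and 3.29%. Both were lowest in replicate 1. Fatty acid oxidation and ketones took 1.13, 2.56 and 2.33%, of which ucp1 alone held 0.790, 2.24 and 2.00%. Most single members of that list ran otherwise, with replicate 1 the highest for 28 of the 40 expressed, and for 24 after rescaling. Over all expressed genes replicate 1 was the highest for 47.1% as deposited and 37.9% after rescaling.

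Smaller lists spanned a wide range. Glutathione and antioxidant genes, led by gpx4a, which reduces lipid peroxides, took 1.04, 0.942 and 1.35%. Cytochrome P450 genes, which oxidise steroids, vitamins and foreign compounds, took 0.407, 0.370 and 0.580%. Of these shares cyp24a1 alone held 0.0169, 0.0323 and 0.268%. Replicates 1, 2 and 3 were the highest for 18, 16 and 19 of the 53 expressed members, and the lowest for 16, 15 and 22. Uric acid and purine breakdown took 0.284, 0.567 and 0.410%, of which pnp4b held 0.178, 0.354 and 0.242%. Uox (urate oxidase), at 499, 1386 and 1003 FPKM, held 0.0660, 0.176 and 0.132%. Bile acid synthesis and transport took 0.124, 0.103 and 0.112%, and cholesterol synthesis 0.0897, 0.0357 and 0.0488%. Cell cycle genes were near the floor, with 4 of 39 expressed and 0.0081, 0.0045 and 0.0038% of the FPKM. The hepatic transcription factors took 0.108, 0.0962 and 0.107% in all, led by cebpd at 182, 159 and 179 FPKM.

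**Figure D3:**
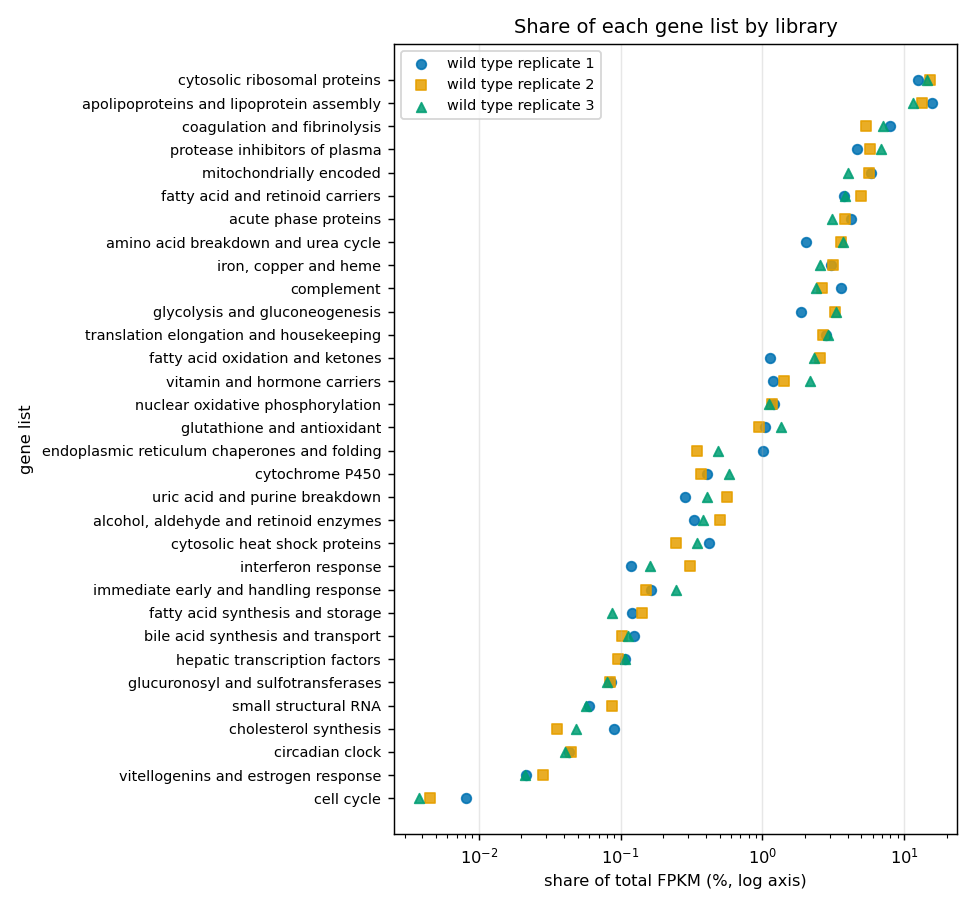
Share of the total FPKM (x axis, %, log axis) of each of the 32 gene lists (y axis, ordered by mean) in wild-type replicates 1, 2 and 3. Ribosomal proteins and apolipoproteins lead, and the libraries stand furthest apart for ER chaperones (1.01, 0.348 and 0.488%), cholesterol synthesis and the interferon response (0.120, 0.311 and 0.161%).

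Vitellogenins, the yolk precursors that the liver of egg-laying females secretes in bulk, were close to absent. Vtg5 was the highest at 3.01, 1.65 and 0.228 FPKM, and vtg1, vtg2, vtg3, vtg7 and vtg8 were below 0.05 FPKM in every library.

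In the order of the RefSeq annotation of GRCz12tu, a build other than the authors', 453 of the 600 abundant genes could be placed by symbol. Of these, 49 (10.8%) had an abundant gene as a direct neighbour, against 317 of the 6955 other expressed genes placed (4.56%). They formed 24 runs, the longest of which held 3 genes, cfhl5, cfhl4 and cfh, all of the factor H family. Other runs were apoa2 with apoc2, apoeb with apoc1, serpina1l with serpina1, ahsg1 with fetub, and c8a with c8b. The runs also joined genes of different families, among them a1cf with rltgr, rpl19 with bckdhbl, rpl6 with acaa2, rtn4a with rps27a and slc22a2 with plg.

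Spread between the libraries was measured as the ratio of the highest to the lowest FPKM + 1 of a gene, and genes were ranked by the SD of log2(FPKM + 1). Most abundant genes differed little. The median ratio was 1.54, and 418 of the 600 (69.7%) stayed under 2-fold. A highest value at most 25% above the lowest, called steady here, held for 136 genes (22.7%) as deposited, and for 106 after rescaling. A ratio of at least 4, called varying here, held for 61 genes (10.2%), which together made up 3.88% of the FPKM. Just inside that limit was si:ch211-133n4.9 (4.17) and just outside it ENSDARG00000092634 (3.96). Among all expressed genes, with a median ratio of 1.48, 504 of 10387 (4.85%) varied. Both level limits are means, so a gene can pass them through the 1 library where it is high, which raises the counts of varying genes. With the level taken as the median over libraries, 48 of 584 abundant genes varied. For 592 of the 600 abundant genes the variation between libraries was more than 2 times the counting error. With 1 library left out a ratio is taken over 2 values and can only be equal or lower. Over the same 600 genes, 30, 45 and 34 varied without replicates 1, 2 and 3, and over the same 10387 expressed genes 209, 285 and 276 did. These counts and the 4.85% are the background of the list counts that follow. This background is not matched for level, as FPKM + 1 understates the ratios of low genes. The expressed genes had a median of 4.70 FPKM. Lists below had higher medians, among them 72.7 for apolipoproteins, 34.4 for ER folding and 9.20 for cholesterol synthesis. How far a list exceeds genes of its own level was not tested.

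Ranked on FPKM as deposited, the 10 steadiest abundant genes came from several roles. Rps27a, a ribosomal protein made as a fusion with ubiquitin, had 2255, 2244 and 2251 FPKM, a ratio of 1.01. Atp5f1e and atp5mg, subunits of ATP synthase, eif3m, a translation initiation factor subunit, nsa2, which acts in ribosome assembly, btf3 and naca, which form the nascent polypeptide-associated complex, tfa and vdac2, a mitochondrial outer membrane channel, had ratios of 1.01 to 1.04. The tenth was si:ch1073-325m22.2, at 153, 152 and 159 FPKM. By list, 33 of 75 abundant ribosomal protein genes and 13 of 28 abundant genes of nuclear oxidative phosphorylation were steady as deposited. So were 7 of 19 coagulation genes, 6 of 16 protease inhibitors and 0 of 12 mitochondrially encoded genes, beside 22.7% of all abundant genes. These list counts were not repeated after rescaling. The ribosomal proteins then had median deviations from the gene's own mean of -0.28, 0.25 and 0.05 on the log2(FPKM + 1) scale.

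**Figure D4:**
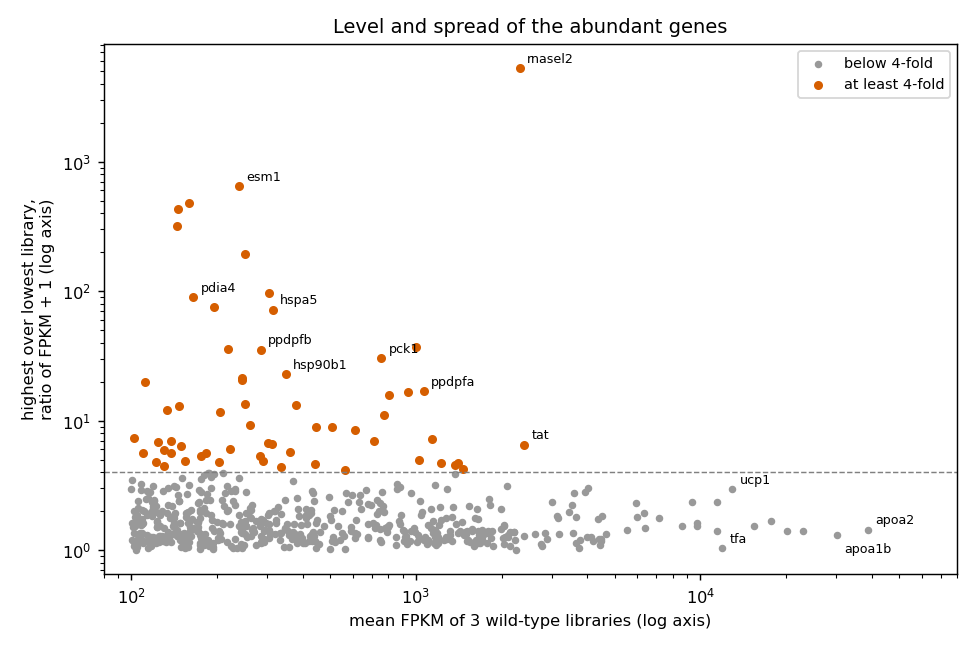
Mean FPKM (x axis, log axis) and ratio of the highest to the lowest library (y axis, FPKM + 1, log axis) of the 600 abundant genes, with the 61 genes of at least 4-fold in orange above the dashed line. Tat, at a mean of 2401 FPKM, is the most abundant varying gene, and rnasel2 at 2319 FPKM has the widest ratio.

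Rnasel2, a secreted ribonuclease of the RNase A family, differed most. It had 5871, 0.113 and 1085 FPKM, from 259827 reads in replicate 1, 5 reads in replicate 2 and 50662 in replicate 3, and was thus among the most abundant transcripts of 1 library and almost absent from another. Esm1, known in mammals as a secreted proteoglycan of endothelium, had 1.07, 0.109 and 717 FPKM. Such near absences were few, as 5 abundant genes were below 1 FPKM in some library.

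Symbols with no assigned role filled much of the extreme end. Si:dkeyp-73d8.9 had 0, 0.0974 and 479 FPKM and si:dkeyp-73d8.6 had 0.0212, 0.128 and 436, both with reads almost solely in replicate 3. Si:ch211-9d9.1 had 434, 0.370 and 0.449 FPKM and ENSDARG00000101479 had 744, 2.83 and 6.49, both high in replicate 1. Si:dkey-238c7.13 had 6.17, 217 and 694 FPKM, ENSDARG00000091800 had 5.04, 127 and 454, and si:dkeyp-1h4.9 had 44.1, 1291 and 1670.0, with replicate 1 low each time. Novel00240, an ID of the deposited table, had 15.9, 30.04 and 608 FPKM. Genes with a placeholder name or an ID alone varied in 16 of 60 cases (26.7%), and those with a gene name in 45 of 540 (8.33%). Some of these genes, such as si:dkeyp-73d8.9, reached the abundant limit through 1 library alone, where a high ratio follows. These counts were not repeated with the median.

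ER folding genes held 4 of the 20 most varying places. The ER list had 15 of the 600 abundant genes, and 5 of these 15 varied, beside 61 (10.2%) of the 600. Hspa5, the main ER chaperone, had 744, 9.35 and 192 FPKM. Hsp90b1, its HSP90-family partner, had 821, 35.1 and 193. The disulfide isomerases pdia4 and pdia6 had 416, 3.66 and 75.2 FPKM and 269, 12.5 and 54.2 FPKM. In each of these 4 genes replicate 1 was highest, replicate 3 next and replicate 2 lowest. Pdia6 is also the gene mutated in another group of the series, and its level among the wild-type libraries spanned 12.5 to 269 FPKM.

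Over the whole ER list, replicate 1 was most often the highest and replicate 2 most often the lowest. Of its 57 expressed members, replicate 1 was the highest for 50 as deposited and after rescaling, beside 47.1 and 37.9% of all expressed genes. Replicate 2 was the lowest for 46 as deposited and 43 after rescaling, beside 4496 and 3402 of all 10387 expressed genes. The median deviation from the gene's own mean was 0.68, -0.66 and 0.06 on the log2(FPKM + 1) scale, against 0.08, -0.09 and -0.00 for all expressed genes. Varying members numbered 15 of 57, and 4 without replicate 2, 12 without replicate 1 and 15 without replicate 3. Pdia3 and ppib, the most abundant members, a disulfide isomerase and a prolyl isomerase, differed less, with 688, 371 and 432 FPKM and 526, 393 and 383 FPKM. Cytosolic heat shock proteins had a median deviation of 0.24, -0.36 and 0.02, and 0 of 18 varied.

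Cholesterol synthesis was high in replicate 1 as well, with both other libraries low. Hmgcs1, which makes the precursor of mevalonate, had 87.5, 2.62 and 8.46 FPKM, and msmo1, a sterol oxidase, 101, 17.7 and 34.1. Ldlra, a low-density lipoprotein receptor, ran the other way with 20.03, 132 and 155 FPKM. Replicate 1 was the highest for 21 of the 25 expressed members, and for 20 after rescaling, beside 47.1 and 37.9% of all expressed genes. The median deviation was 1.21, -0.90 and -0.61. Of the 25, 14 varied, and 0 did so without replicate 1, against 13 without either of the others, beside a fall from 504 to 209 among all expressed genes without replicate 1.

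Of the fatty acid synthesis and storage list, 7 of 29 expressed members varied, and 2 without replicate 1, without a common direction. Elovl6, a fatty acid elongase, had 203, 16.4 and 23.5 FPKM and g0s2, an inhibitor of fat breakdown, 61.2, 6.70 and 0.871, while thrsp, tied to lipogenesis in mammals, had 44.3, 613 and 94.6 and lpin1, a phosphatidate phosphatase, 8.51, 99.7 and 177.

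Members of the amino acid list were most often lowest in replicate 1, and so was pck1. Pck1, the first committed enzyme of gluconeogenesis, had 50.1, 658 and 1561 FPKM. Tat, tyrosine aminotransferase, had 612, 2573 and 4017 FPKM. Arg2, an arginase, had 40.04, 377 and 367 FPKM. The libraries separate in the same way for tat and pck1, with replicate 1 lowest and replicate 3 highest. Of the 57 expressed members of the amino acid list, replicate 1 was the lowest for 38 as deposited and 41 after rescaling. The median deviation was -0.43, 0.37 and 0.11, and 4 of 57 varied (7.02%), near the 4.85% of all expressed genes. Of the 30 expressed members of glycolysis and gluconeogenesis, replicate 1 was the lowest for 17 as deposited and 21 after rescaling, and 2 varied. Of all 10387 expressed genes replicate 1 was the lowest for 2778 as deposited and 3624 after rescaling. G6pc1, the glucose-6-phosphatase that releases free glucose, had 547, 548 and 2595 FPKM for the more abundant of the 2 gene IDs with that symbol, with replicate 3 apart and both others alike.

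Immediate early and stress-handling genes differed in 17 of 38 expressed members, without a shared library order. The count was 6, 12 and 9 without replicates 1, 2 and 3. Sgk1, a kinase, and fkbp5, a co-chaperone of steroid receptors, had 66.4, 197 and 404 FPKM and 20.5, 141 and 279 FPKM, lowest in replicate 1. Egr2a, a zinc finger transcription factor, had 2.25, 1.28 and 93.1 FPKM. Junb, an AP-1 subunit just outside the 20 most varying genes, had 212, 16.6 and 173 FPKM for 1 of 2 IDs with that symbol. Gadd45g, a growth arrest gene that is not in this list, had 614, 27.8 and 93.02 FPKM for 1 of 3 IDs.

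Interferon response genes stood apart in replicate 2. Rsad2 (viperin), an antiviral enzyme, had 0.640, 139 and 6.86 FPKM. B2m, the light chain of class I major histocompatibility molecules, had 276, 660 and 384 FPKM, and the class I heavy chain mhc1uba 310, 807 and 364. Of 29 expressed members, replicate 2 was the highest for 28 as deposited and for 29 after rescaling, beside 22.3 and 31.5% of all expressed genes. The list's median deviation was -0.36, 0.57 and -0.33. Varying members numbered 9, and 2 without replicate 2, against 8 without either of the others.

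Plasma protein genes also supplied varying members, and those named here differed in pattern. Serping1, the C1 inhibitor that restrains complement and kinins, had 205, 2454 and 146 FPKM, high in replicate 2. Of the hemopexin copies, which bind free heme, hpxb varied, with 2173, 437 and 478 FPKM and replicate 1 high. Hpxa, at 2626, 7107 and 2344 FPKM with replicate 2 high, had a ratio of 3.03 and stayed below the limit. Hamp (hepcidin), the hormone that limits iron release, had 224, 530 and 99.0 FPKM, and crp5, of the C-reactive protein family, 436, 105 and 468. Of the 21 expressed acute phase genes 8 varied, and 4, 3 and 4 without replicates 1, 2 and 3. Replicate 1 was the highest for 13 of the 21, and for 11 after rescaling, beside 47.1 and 37.9% of all expressed genes. Replicate 3 was the lowest for 13, as deposited and after rescaling, beside 3113 and 3361 of all 10387 expressed genes. It was the highest for 2 as deposited, crp5 among them. The median deviation was 0.37, -0.03 and -0.56, against 0.08, -0.09 and -0.00 for all expressed genes. Of the coagulation genes 0 of 24 varied, of the mitochondrially encoded 0 of 13 and of the ribosomal proteins 0 of 78. Over all expressed genes 4.85% varied, a share at which short lists hold 0 or few. Abundant members of the 3 lists numbered 19, 12 and 75, and of all abundant genes 10.2% varied. In complement 1 of 35 did, cfhl1, with 0.0403, 0.0647 and 90.1 FPKM.

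The list of vitamin and hormone carriers also holds hormones, such as fgf19, and receptors, such as ghra. It had no common high library, with 8, 7 and 9 of 24 expressed members highest in replicates 1, 2 and 3. Several of the genes named here were high in replicate 3. The member of widest spread, fgf19, was highest in replicate 2, with 1.35, 31.3 and 8.56 FPKM. Cyp24a1, which inactivates vitamin D and is in the cytochrome P450 list instead, had 128, 254 and 2041 FPKM. It was the first gene outside the 20 most varying. Igfbp1b, a binding protein of insulin-like growth factors, had 121, 128 and 1090 FPKM. Agt (angiotensinogen) had 1106, 545 and 2557 FPKM and serpina7, of the family of thyroxine-binding globulin, 1333, 500 and 2285. Of the 24 expressed members of this list of carriers, hormones and receptors 8 varied, and 1 without replicate 3, 6 without replicate 1 and 4 without replicate 2. Selenop2, of the selenoprotein P family and in the glutathione and antioxidant list, had 691, 766 and 2928 FPKM.

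Low in replicate 3 were the paralogs ppdpfb and ppdpfa, named after a pancreatic progenitor factor, with 549, 292 and 14.5 FPKM and 1814, 1287 and 106. The chemokine gene ccl39.2 had 522, 187 and 24.5. Apoa4b.1 and apoa4b.2, apolipoproteins of dietary fat transport in mammals, had 609, 819 and 90.6 FPKM and 62.2, 152 and 4.25, so both copies were lowest in replicate 3. The apolipoprotein list had 8 varying members of 27, and 2 without replicate 3 and 6 without either of the others. Of the cytochrome P450 genes 14 of 53 varied, 4 without replicate 3, 9 without replicate 1 and 11 without replicate 2, and cyp2x8 had the widest spread with 0.330, 103 and 34.4 FPKM.

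**Figure D5:**
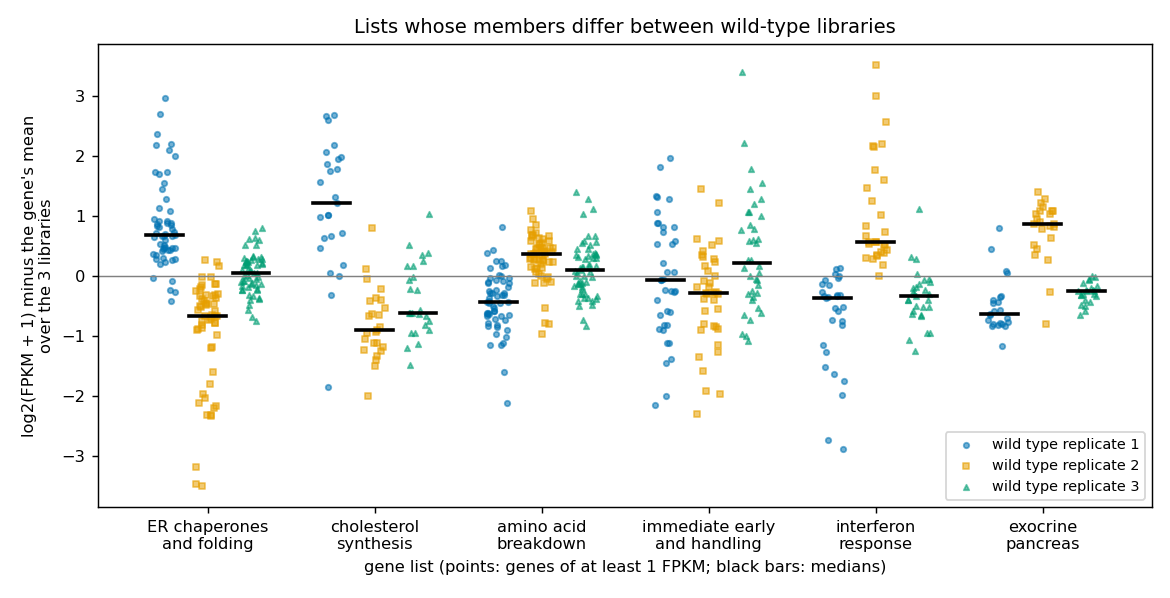
Deviation of log2(FPKM + 1) from the gene's mean over the 3 libraries (y axis) for the expressed members of 6 lists (x axis), with 1 point per gene and library and a black bar at each median. ER chaperones and cholesterol synthesis lie high in replicate 1 (medians 0.68 and 1.21), and the interferon response and the exocrine pancreas markers in replicate 2 (medians 0.57 and 0.88).

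No library was the odd one for most of the varying genes. Among the 61 varying genes, the library furthest from the other pair was replicate 1 for 25 (8 high, 17 low), replicate 2 for 17 (5 high, 12 low) and replicate 3 for 19 (13 high, 6 low). Between replicates 1 and 2, 15 abundant genes were at least 4-fold higher in replicate 1 and 19 in replicate 2. The counts were 17 and 28 between replicates 1 and 3, and 9 and 21 between replicates 2 and 3, the second number being those higher in replicate 3. Over all expressed genes, replicates 2 and 3 were the closest pair. Their Spearman correlation was 0.891, against 0.862 and 0.861 for replicate 1 with replicates 2 and 3. Of the same genes, replicate 1 was the highest for 47.1% as deposited and 37.9% after rescaling by the median ratio, and replicate 2 for 22.3 and 31.5%. Among the 600 abundant genes the order was the other way, with replicate 2 the highest for 39.8% and replicate 1 for 31.8% as deposited.

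Markers of other cell types took small shares of the FPKM and differed between libraries. In bulk tissue, fewer cells of a type and less RNA per cell cannot be told apart. The 29 exocrine pancreas markers, all with reads, summed to 526, 1517 and 647 FPKM, with prss1 (trypsin) at 74.7, 215 and 98.6. Replicate 2 was the highest for 21 of the 23 expressed, beside 22.3% of all expressed genes. Replicate 2 is also the library with high interferon genes and low ER chaperones, and the part of pancreatic RNA in those results was not tested. The exocrine sum was 0.0696, 0.193 and 0.0851% of the total.

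Macrophage markers summed to 665, 425 and 418 FPKM, of which mfap4 held 383, 149 and 96.7 for 1 of 8 IDs with that symbol and lygl1 122, 34.7 and 38.8. Most single markers ran otherwise, with replicate 3 the highest for 8 of the 12 expressed and replicate 1 the lowest for 7. An example is cd74a at 81.8, 136 and 166 FPKM, and the median deviation of the markers was -0.25, 0.01 and 0.27. Of all 10387 expressed genes, replicate 3 was the highest for 3185 and replicate 1 the lowest for 2778. Erythroid markers summed to 160, 232 and 199 FPKM, led by the alpha globin hbaa1. The biliary list summed to 2020.0, 2384 and 3596 FPKM, nearly all of it from krt18a.1 and krt8, keratins that other epithelial cells also make. The endothelial list summed to 22.6, 25.8 and 22.2 FPKM, and its members stab2 and lyve1b were below 0.1 FPKM in every library. The enterocyte list rested on 2 IDs with the symbol rbp2, at 779, 967 and 485 FPKM and 698, 241 and 354 FPKM, with the enterocyte cadherin cdh17 at 4.34, 3.32 and 5.29 FPKM. The thrombocyte sum of 1909, 1352 and 1730 FPKM came almost wholly from fn1, a plasma fibronectin that hepatocytes also make, and the adipocyte sum of 390, 818 and 919 mostly from lpl, lipoprotein lipase. Stellate and stromal markers summed to 35.5, 27.6 and 22.7 FPKM, and ins (insulin) was at 1.86, 2.29 and 0.151. Neutrophil and ovary lists had 0 members at 1 FPKM or above and the lymphocyte list 1, ccl38a.5. Acta1, skeletal muscle actin, had 0.299, 0.0800 and 84.95 FPKM for 1 of 2 IDs, while atp2a1, the calcium pump of muscle, stayed below 0.1 FPKM and mybpc1, a myosin-binding protein, had 1.57, 4.67 and 0 FPKM.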

How the data were processed

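Liver RNA of 3 wild-type zebrafish libraries was analysed out of 9 in the series. Livers had been frozen in liquid nitrogen and extracted with Qiagen kits, per the labels' protocols, and 1 µg of total RNA with an integrity number above 6.5 entered each Illumina library. The build danRer11 and the tools HTSeq 0.6.1, TopHat2 2.0.12 and Bowtie2 2.2.3 appear in the submitters' processing notes, without roles. Annotation, strand and the handling of multiply mapped reads were not stated in any source read for this work. The authors deposited FPKM per gene and library, the only values ranked. A second deposited column, the authors' mean scaled wild-type read signal per gene, served with the FPKM steps to recover reads: all 61883 values below 10000 reads (100%) were whole within 0.05. Without strand, reads of overlapping and antisense genes cannot be told apart.

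Tables were read with pandas 2.3.3 and numpy 2.4.6 under Python 3.11.15, and plots made by matplotlib 3.10.9. Shares are of each library's summed FPKM. Spread used FPKM + 1, which understates ratios of low genes. Rescaled FPKM divides each library by its median ratio to the genes' geometric means (1.069, 0.931 and 1.006). Of 33716 IDs, 29201 had a symbol, printed in lower case. Of 1610 list symbols 1485 matched, 185 of them through capital symbols without a copy letter or number, a rule chosen after seeing the files. Members, lists and thresholds were chosen with earlier results of these data known. Named were the 20 highest means (1 of them is not reported here), the 20 widest and 10 narrowest abundant spreads, the neighbours of these limits, and for each list up to 3 members of highest mean and the one of widest spread. Other genes named (hpxb, hamp, crp5, igfbp1b, selenop2, apoa4b.1, g6pc1, the other vitellogenins, stab2 and lyve1b among them) were chosen after their values were seen. The read recovery and the spread calls were run on simulated data with set changes and counting error alone. That simulation held no other variation between libraries, so it cannot show how the spread calls behave under such variation.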

Additional observations from a re-analysis of the deposited data

How the results depend on the processing

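With 3 libraries of unstated origin, spread here is a range over 3 values, and differences between fish and between library preparations cannot be told apart. Depth was not the limit for abundant genes. No paired analysis was possible because only 1 group was used and nothing was tested. The 10, 50 and 100 leading genes took 23.4, 47.6 and 58.0% by share of reads, and the 10 leading took 26.5% without mitochondrial genes and small structural RNA. The listed share of 72.05% was 69.2% by reads, 70.5% without those genes, and 70.4% with exact symbols alone, an alternative added after seeing the data. Varying genes numbered 140 at 30 FPKM or above, 28 at 300 or above and 504 with no filter (all of them expressed), 182 at a ratio of 2 and 31 at a ratio of 8, and 28 to 48 with 1 library left out and the level filter taken anew on the other two. Steady genes numbered 282, 70 and 22451 under the same 3 level filters (the last mostly genes near 0). They numbered 106 after rescaling and 238 to 320 with 1 library left out. The median ratio was 1.45 at 300 FPKM or above, 1.09 with no filter, and 1.22 to 1.33 with 1 library left out. Counts with a library left out compare 2 values rather than 3. Of 96 single list shares taken by reads, without mitochondrial genes and small structural RNA or with exact symbols, 65 stayed within 1 SD and 31 moved further. By reads 9 of 32 shares moved by over 1.5 times. Rescaling cannot move a share, and the median or a mean of 2 libraries cannot leave 1 SD, so these were not counted. Some of the 96 were fixed in advance too. Exact symbols cannot change a list with 0 matches through capital symbols. Leaving out mitochondrial genes and small structural RNA sets those lists to 0 and raises all others by a common factor per library. The counts of 65 and 31 therefore do not measure how stable the shares are.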
